A study of Mus musculus with 24 samples.

Results

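Mouse mammary tumours were compared for 7 genes that sense bacterial peptidoglycan or foreign RNA inside the cell, or that relay the RNA signal: Nod1, Nod2, Ddx58 (RIG-I), Ifih1 (MDA5), Mavs, Ikbke and Tbk1. They were picked by name from a panel of 770 genes (750 endogenous and 20 housekeeping), and each was represented by 1 probe. All 7 passed the filter on weak genes, a normalized count of at least 20 in at least 4 of the 24 samples, which kept 621 genes.

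All mice were 7 to 8 week old females of the neu-N strain on the FVB background, which carry a rat neu transgene driven by the mouse mammary tumour virus promoter and are tolerant to its product. Each received cells of a single line, NT2.5, from a mammary tumour of that strain, in the mammary fat pad, and was treated for 3 weeks from day 3. Entinostat (ENT), which blocks class I histone deacetylases, was given by mouth at 5 mg/kg. Antibodies were directed at HER2, at CTLA-4 (CTLA4) or at PD-1 (PD1), with 100 µg per mouse. Vehicle mice received methylcellulose and isotype antibodies. There were 4 tumours of each of 5 arms, namely vehicle, ENT, ENT+CTLA4, ENT+PD1 and the double-antibody arm ENT+PD1+CTLA4, and 2 of ENT+CTLA4+HER2. Arms were taken from the sample titles. The protocol text also says that experiments in this model included anti-HER2 and left it out, so whether arms not titled for it received it was not settled here. A further 2 samples, called the repeat-titled pair here, carry the titles of ENT+PD1 replicates 1 and 2 a second time. All arms but vehicle share entinostat, so no arm had an antibody without it. The labels give whole tumours as the source, but the extraction text ends with immune cells being isolated, and the origin of the RNA was not settled here.

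The instrument reads 12 samples per cartridge, and 2 cartridges were used. Vehicle and both entinostat arms without anti-CTLA-4 shared cartridge 1, while cartridge 2 carried all anti-CTLA-4 arms and the repeat-titled pair. A difference between arms on different cartridges therefore cannot be told apart from a cartridge difference. Total counts per sample ran from 226863 to 483418. The 8 negative control probes averaged 9.02 ± 1.99 normalized counts on the first cartridge and 5.32 ± 1.11 on the second (SD, n = 12 each). All 6 epithelial markers on the panel but Muc1 exceeded the negative controls in all 24 samples, led by Epcam with a median of 5763. The macrophage marker Lyz2 also did so in all 24, with a median of 4544. The 8 T cell markers ranged from Cd2, above the controls in 2 samples, to Cd3d in 23. A probe was taken as above the negative controls where it exceeded their mean in that sample by 2 SD. In whole-tumour RNA, fewer cells of a type and less RNA per cell cannot be told apart. The labels do not establish that all samples are separate tumours, since the repeat-titled pair may be ENT+PD1 replicates 1 and 2 run again. Tests with the pair treated its samples as independent of the others. A p-value here weighs a difference between groups against the spread between samples within groups.

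RIG-I and MDA5 are helicases that bind double-stranded RNA in the cytosol and then dock onto MAVS, a protein of the outer mitochondrial membrane. MAVS recruits the kinases TBK1 and IKKε (encoded by Ikbke), which phosphorylate the transcription factors IRF3 and IRF7 and so switch on type I interferons. NOD1 and NOD2 bind fragments of peptidoglycan, signal through the kinase RIPK2 and lead to activation of NF-κB. In tumours these pathways are known both in cancer cells and in infiltrating myeloid cells.

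The pattern of the members across the arms was as follows. Nod1 averaged 104 ± 13.6 in vehicle, 70.8 ± 7.40 in ENT, 58.7 ± 9.69 in ENT+CTLA4, and for ENT+PD1+CTLA4 it was 72.1 ± 12.2 (normalized counts, SD, n = 4), and 62.2 ± 1.82 in the repeat-titled pair (n = 2). Nod2 averaged 28.7 ± 1.81, 17.8 ± 5.02, 13.6 ± 3.31 and 13.6 ± 2.66 in the same 4 arms and 9.20 ± 4.21 in the pair. Both genes thus averaged below vehicle in ENT, ENT+CTLA4, ENT+PD1+CTLA4 and the pair. In ENT+PD1 and in ENT+CTLA4+HER2, the means of both genes lay nearer to vehicle than to any of those groups. All anti-CTLA-4 arms and the pair lay on the other cartridge from vehicle, and ENT+CTLA4+HER2 had n = 2. The part of anti-CTLA-4 in this pattern was not tested. Mavs was low in ENT+CTLA4+HER2, at 57.1 ± 8.68 (n = 2) against 96.9 ± 7.99 in ENT+CTLA4 (n = 4). Ikbke was lowest in ENT, at 43.1 ± 4.25 against 60.1 ± 4.92 in vehicle. Ikbke, Ddx58, Ifih1 and Tbk1 passed the test in none of the comparisons. Over the 24 samples the coefficient of variation was 44.1% for Nod2, 27.9% for Nod1, 21.8% for Ifih1, 18.9% for Ikbke, 15.1% for Tbk1, 14.7% for Mavs and 12.5% for Ddx58. Changes below are log2 changes of the normalized count plus 1 with their SE, from a limma fit over 22 samples in 6 groups. A gene was called at a Benjamini-Hochberg adjusted p under 0.05 over the 621 genes.

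**Figure D1:**
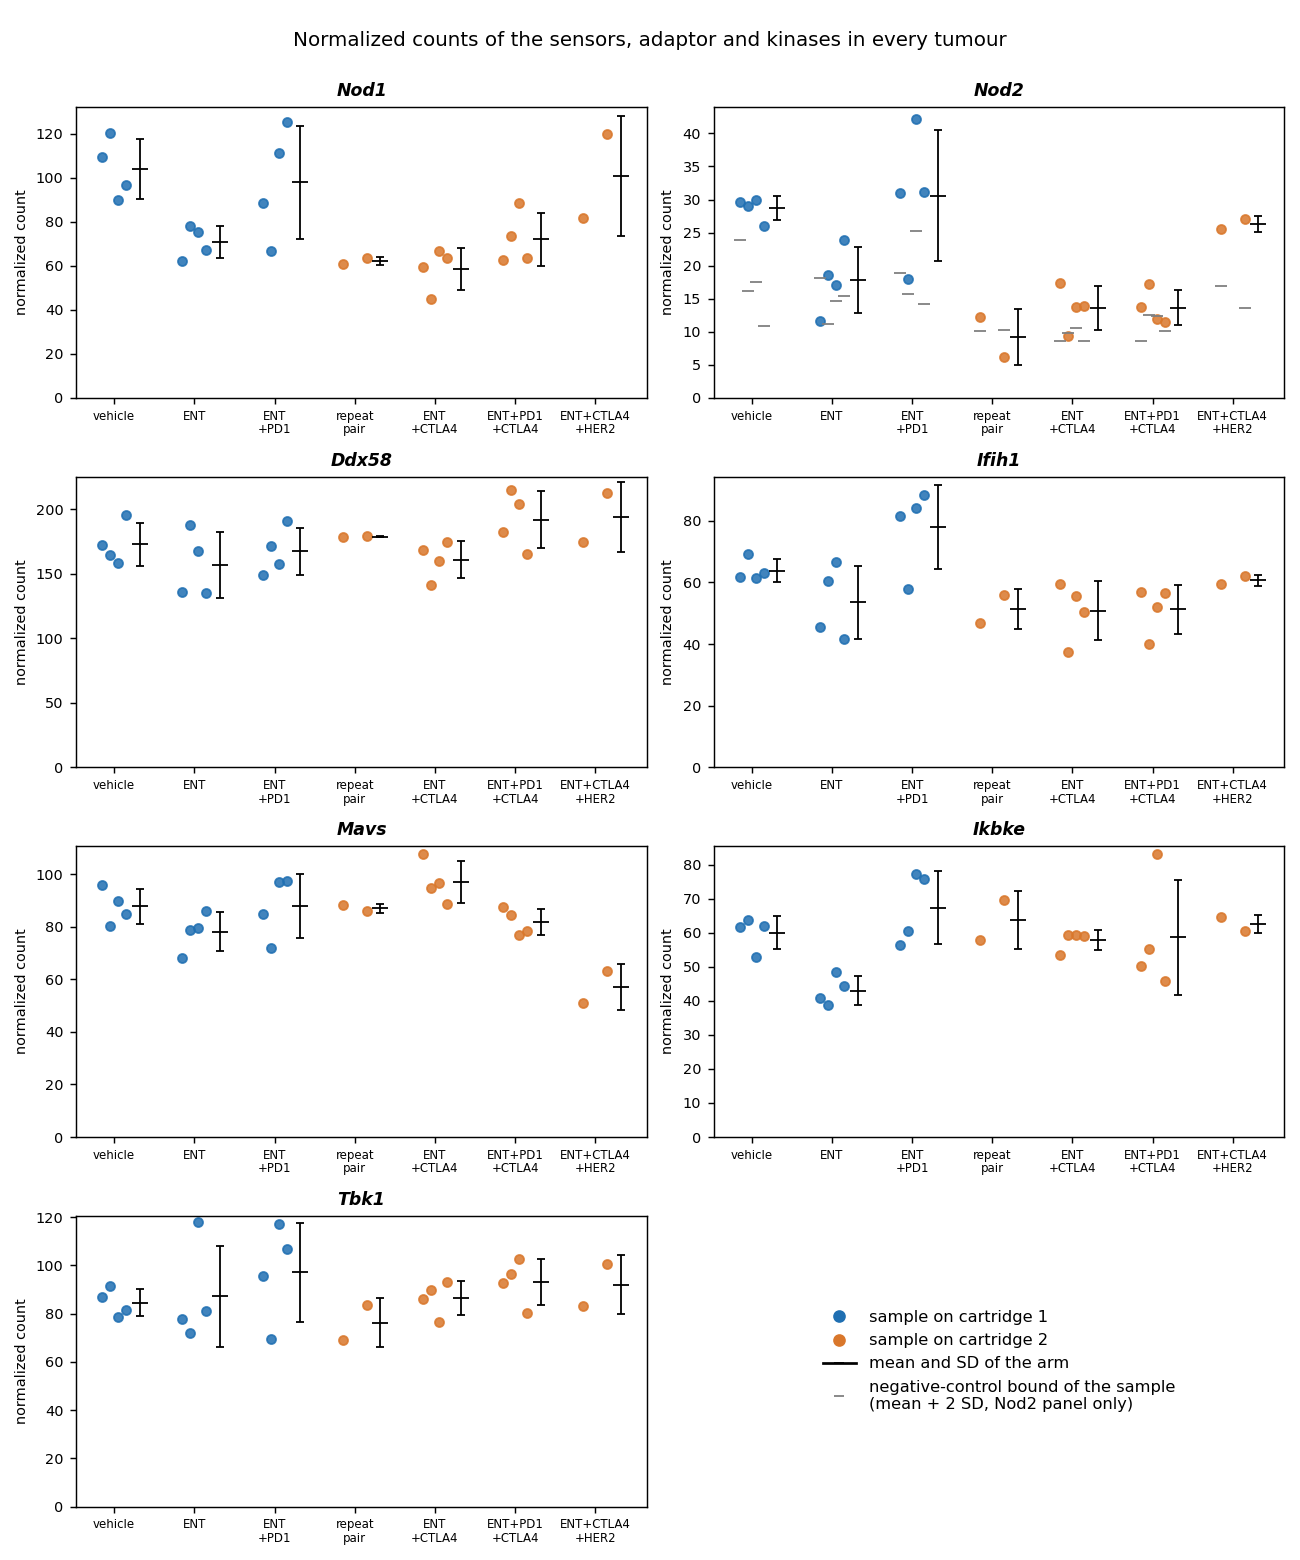
Normalized counts (linear vertical axes from 0) of the 7 genes in each sample by arm. Points are samples, blue on cartridge 1 and orange on cartridge 2, and black marks give the mean and SD of the arm. Grey marks in the Nod2 panel are the negative-control bound of each sample. Nod2 lies at 26.0 to 29.96 in vehicle and at 9.37 to 17.4 in ENT+CTLA4, and Mavs is lowest in the 2 ENT+CTLA4+HER2 tumours.

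Nod1 encodes the sensor of the diaminopimelic acid type of peptidoglycan, found mainly in Gram-negative bacteria. Its level was 109.6, 120.4, 89.9 and 96.6 in the vehicle tumours, 62.2, 78.2, 75.6 and 67.3 in ENT and 88.5, 67.0, 111 and 126 in ENT+PD1. All ENT tumours lay below all vehicle tumours, and ENT+PD1 spanned both. On the second cartridge Nod1 was 59.5, 44.8, 66.6 and 63.7 in ENT+CTLA4. The ENT+PD1+CTLA4 tumours had 62.5, 73.5, 88.7 and 63.5. It was 60.9 and 63.5 in the repeat-titled pair and 81.6 and 120.1 in ENT+CTLA4+HER2. Both anti-HER2 tumours were above every ENT+CTLA4 tumour. Ordered by mean, the arms ran from vehicle through ENT+CTLA4+HER2, ENT+PD1, ENT+PD1+CTLA4, ENT and the repeat-titled pair to ENT+CTLA4, and every pair of neighbours in this order overlapped.

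Nod2 encodes the sensor of muramyl dipeptide, a peptidoglycan fragment common to most bacteria, and is known mainly from myeloid and intestinal epithelial cells. It was 29.7, 29.1, 29.96 and 26.0 in vehicle, 11.7, 18.6, 17.1 and 23.9 in ENT and 31.0, 18.0, 42.1 and 31.1 in ENT+PD1. It was 17.4, 9.37, 13.7 and 14.0 in ENT+CTLA4. The ENT+PD1+CTLA4 tumours had 13.8, 17.3, 11.9 and 11.5. The repeat-titled pair had 12.2 and 6.22, and ENT+CTLA4+HER2 had 25.5 and 27.1. No vehicle tumour overlapped ENT, ENT+CTLA4 or ENT+PD1+CTLA4, and both anti-HER2 tumours lay above all others on the second cartridge. In the order of means from ENT+PD1 through vehicle, ENT+CTLA4+HER2, ENT, ENT+CTLA4 and ENT+PD1+CTLA4 to the repeat-titled pair, the only neighbours that did not overlap were ENT+CTLA4+HER2 and ENT. Nod2 rested on few molecules, from 5 to 36 counts per sample, and exceeded the negative controls in 20 of 24 samples, whereas the other members did so in all 24. The exact Poisson 95% interval of the lowest value, 5 counts, was 1.62 to 11.7 counts, and that of the highest, 36, was 25.2 to 49.8 (counting error only).

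Within the first cartridge, neither gene passed the test. ENT against vehicle gave −0.55 ± 0.19 for Nod1 and −0.70 ± 0.26 for Nod2 (limma adjusted p = 0.999 for both), although the groups did not overlap. With Ikbke, 3 of the 7 members lay without overlap below vehicle, where 5.96% of the 621 genes did. For ENT+PD1 against ENT, Nod1 differed by 0.43 ± 0.19 (adjusted p = 0.250) and Nod2 by 0.73 ± 0.26 (adjusted p = 0.206). Median rescaling took these to −0.0865 and 0.23, quantile normalization to 0.0626 and 0.28, and counting the repeat-titled pair as ENT+PD1 to 0.23 and 0.18. The ENT+PD1 tumours with the highest values, replicates 5 and 6 for Nod1 and 5 for Nod2, were also the richest in macrophage transcript, with a sum over 10 markers of 15625 and 23954 against 7915 and 7232 in replicates 1 and 2. They also had higher T cell sums (477 and 599 against 144 and 80.0), dendritic cell sums (283 and 346 against 114 and 93.9) and NK cell sums (209 and 251 against 103 and 64.5), and lower epithelial sums (7004 and 6051 against 8885 and 9365), and the part of these in the values was not tested. Without replicates 5 and 6 the changes from ENT were 0.12 and 0.43, a comparison chosen after the data were seen.

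Across the cartridges, Nod1 and Nod2 were lower in ENT+CTLA4 than in vehicle by −0.82 ± 0.19 (limma adjusted p = 0.0368) and −1.05 ± 0.26 (adjusted p = 0.0422), 2 of 7 members called where 1.45% of genes were. Nod2 was also lower in ENT+PD1+CTLA4 than in vehicle, by −1.04 ± 0.26 (adjusted p = 0.0357, 1 of 7 members called beside 2.09% of genes), and than in ENT+PD1, by −1.07 ± 0.26 (adjusted p = 0.0248, 1 of 7 beside 3.22%). Nod1 missed the threshold in both, at −0.53 ± 0.19 (adjusted p = 0.216) and −0.41 ± 0.19 (adjusted p = 0.271). The same direction appeared between samples of the same treatment title. The repeat-titled pair, on the second cartridge, had less Nod2 than ENT+PD1 on the first by −1.63 ± 0.33 (adjusted p = 0.0148, 1 of 7 members called beside 1.45% of genes), and Nod1 differed by −0.61 ± 0.23 (adjusted p = 0.122). That ENT+PD1 group includes replicates 5 and 6, whose titles the pair does not repeat. In replicates 1 and 2 alone, Nod2 was 31.0 and 18.0, against 12.2 and 6.22 in the pair. Nod1 was 88.5 and 67.0 there, against 60.9 and 63.5 in the pair. With the pair counted as ENT+PD1 and the cartridge as a block, Nod2 came to 0.59 for ENT+CTLA4 against vehicle, 0.60 for ENT+PD1+CTLA4 against vehicle and 0.57 for ENT+PD1+CTLA4 against ENT+PD1. All of these had the opposite sign and none was called. Nod1 came to −0.21 for ENT+CTLA4 against vehicle. The identity of the pair is uncertain, since its first sample correlated best with ENT+PD1 replicate 2 (r = 0.980) rather than with the replicate of its own title, which ranked 12.

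These calls also rested on single samples. For ENT+CTLA4 against vehicle, Nod1 missed the threshold without any one of 7 of the 8 samples, all but vehicle replicate 3 (adjusted p = 0.0564 to 0.140), and Nod2 without any one of 6, all but vehicle replicate 3 and ENT+CTLA4 replicate 1 (0.0933 to 0.166). For ENT+PD1+CTLA4 against vehicle, Nod2 missed it without any one sample but vehicle replicate 3 (0.0510 to 0.134). Against ENT+PD1 it did so without ENT+PD1 replicates 1 (0.0730), 5 (0.122) or 6 (0.0663) or ENT+PD1+CTLA4 replicates 5 (0.0703) or 2 (0.104). The direction was the same in each of these. The F test over the 5 arms other than ENT+CTLA4+HER2 called 1 of 7 members, Nod2 (adjusted p = 0.0269, beside 3.22% of genes), and Nod1 had an adjusted p of 0.0649. Those arms lie on both cartridges, so arm and cartridge differences cannot be told apart in this test.

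**Figure D2:**
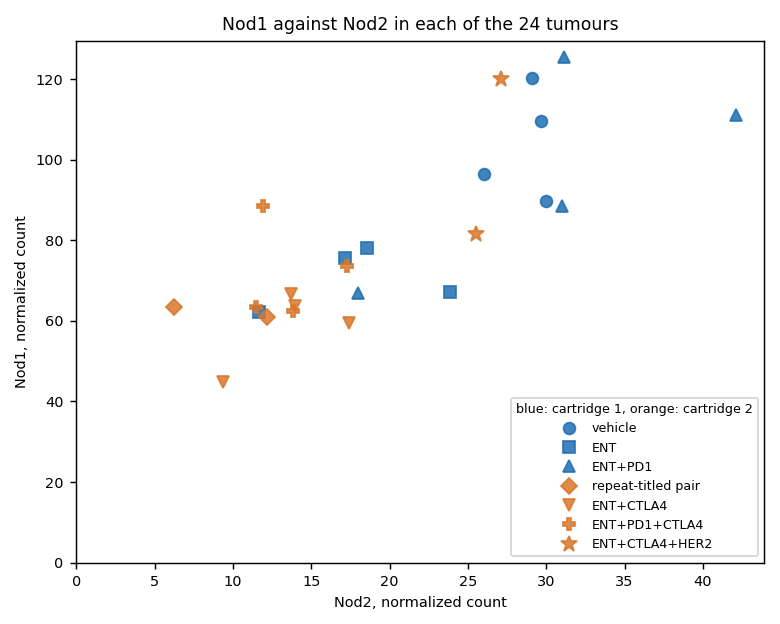
Nod1 (vertical axis) against Nod2 (horizontal axis), both in normalized counts on linear axes from 0. There is 1 point per sample, with the shape giving the arm and the colour the cartridge. The 2 genes were high together in vehicle, in most ENT+PD1 tumours and in ENT+CTLA4+HER2, and low together in ENT+CTLA4 and the repeat-titled pair (Pearson r = 0.79 over 24 samples on the log2 scale).

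Nod1 and Nod2 were the pair of members most alike. After the mean of each cartridge was subtracted, Pearson's r of their log2 values was 0.72 over 24 samples, against a median of 0.35 over the 21 pairs. Points of an arm share a cartridge and a scaling, so these correlations are descriptions only. Among all tested genes, Nod1 was most like Psmb8 (r = 0.82) and Psmb9 (0.80), subunits of the immunoproteasome, and Ptgdr2 (0.79), a prostaglandin D2 receptor. Nod2 was most like Cxcr3 (0.78), a chemokine receptor of T and NK cells, then Nod1 (0.72) and Ptgdr2 (0.71). Nod2 itself was not among the 5 genes most like Nod1, the last of which was Tlr4 (0.75).

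The 250 bases upstream of the first RefSeq start of Nod1 and of the start of Nod2 are given in GRCm38.p6. They are written 5′ to 3′ on the strand of the gene, and shared regulation was not tested. The first lies at chr6:54972613-54972862 on the minus strand and the second at chr8:88647097-88647346 on the plus strand.
Nod1: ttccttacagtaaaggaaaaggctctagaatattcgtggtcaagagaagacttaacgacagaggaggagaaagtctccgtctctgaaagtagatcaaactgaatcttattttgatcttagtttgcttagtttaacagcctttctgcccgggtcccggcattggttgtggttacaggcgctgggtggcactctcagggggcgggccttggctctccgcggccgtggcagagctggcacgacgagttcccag
Nod2: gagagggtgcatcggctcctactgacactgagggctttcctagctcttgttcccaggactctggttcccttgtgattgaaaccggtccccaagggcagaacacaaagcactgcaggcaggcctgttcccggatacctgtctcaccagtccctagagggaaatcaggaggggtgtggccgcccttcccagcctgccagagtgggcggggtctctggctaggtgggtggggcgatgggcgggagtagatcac
In 300 bases (250 before and 50 after each start), these starts held neither the core of the interferon-stimulated response element (GAAA, any 2 bases and GAAA again), nor the interferon-gamma activated site, TTCNNNGAA, nor an NF-κB site, on either strand, with overlapping matches counted. The second RefSeq start of Nod1 had an interferon-gamma activated site 193 to 185 bases upstream, shown in capitals in the 30 bases at chr6:54971835-54971864 (minus strand).
Nod1, second start: ggctggctgcTTCCAGGAAcctcctatggt
Of 32851 mouse promoters of this length, 8.30% held the activated site, 3.44% the response element core and 8.46% the NF-κB site. A match is a run of letters and not a bound site.

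The RNA helicases varied less. Ddx58 encodes RIG-I, which binds short double-stranded RNA with a 5′ triphosphate, and it averaged from 157 ± 25.7 in ENT to 194 ± 26.9 (n = 2) in ENT+CTLA4+HER2. Single tumours ran from 135 in ENT to 215 in ENT+PD1+CTLA4, and all neighbouring arms overlapped in the order of means. Of the 10 comparisons of arms that were fitted, its largest difference was between ENT+PD1+CTLA4 and ENT, which lay on different cartridges, at 0.30 ± 0.13 (adjusted p = 0.411).

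Ifih1 encodes MDA5, which binds long double-stranded RNA. It was 81.6, 58.0, 84.3 and 88.2 in ENT+PD1, against 45.7, 60.4, 66.6 and 41.8 in ENT and 61.7, 69.2, 61.4 and 63.0 in vehicle. The ENT+PD1 replicates 1, 5 and 6 lay above every tumour of the other arms, and replicate 2 lay among them. ENT+PD1 differed from ENT by 0.54 ± 0.18 (adjusted p = 0.206) and was not called, and with median rescaling the difference shrank to 0.0265 and with quantile normalization to 0.0512. Every other arm averaged between 50.8 and 63.8, with overlap between all neighbours. ENT+PD1+CTLA4, on the other cartridge, was lower than ENT+PD1 by −0.59 ± 0.18 (adjusted p = 0.0761). That difference passed without ENT+PD1 replicate 2 (−0.72, adjusted p = 0.0209), and was −0.0094 with the cartridge block. The repeat-titled pair, also on the second cartridge, was lower than ENT+PD1, replicates 5 and 6 included, by −0.58 ± 0.22 (limma adjusted p = 0.124).

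Ddx58 and Ifih1 are themselves known as interferon-induced genes, and theirs were the only starts among the 8 of the members to hold the response element core. In Ddx58 the match lies 3 to 12 bases downstream of the start, on the opposite strand (chr4:40239804-40239833, minus strand), and in Ifih1 33 to 42 bases downstream (chr2:62646206-62646235, minus strand). Capitals mark the match.
Ddx58: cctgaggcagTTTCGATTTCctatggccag
Ifih1: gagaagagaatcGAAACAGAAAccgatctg
Their levels went together only loosely (r = 0.35 after centring on cartridges). Ddx58 was most like Stat2 (r = 0.82), which carries the signal of the type I interferon receptor, then Cd1d1 (0.73), an antigen-presenting molecule for lipids, and Reps1 (0.70). Ifih1 was most like Klrk1 (0.76), the NKG2D receptor, then Rora (0.74), a nuclear receptor, and Arg2 (0.72), an arginase.

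Mavs, the adaptor of both helicases, differed from the other members in its pattern, with r between −0.16 and 0.12 against each of them. It was 95.9, 80.3, 89.9 and 84.8 in vehicle, 68.0, 79.0, 79.7 and 86.1 in ENT and 85.02, 71.9, 97.1 and 97.6 in ENT+PD1. It was 108, 94.8, 96.7 and 88.6 in ENT+CTLA4. The ENT+PD1+CTLA4 tumours had 87.7, 84.4, 76.8 and 78.5, and the repeat-titled pair 88.3 and 85.9. The anti-HER2 tumours had 51.0 and 63.3, below every other tumour of the study. In the order of means from ENT+CTLA4 through ENT+PD1, vehicle, the repeat-titled pair, ENT+PD1+CTLA4 and ENT to ENT+CTLA4+HER2, only the last step was free of overlap.

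Within the second cartridge, Mavs was lower in ENT+CTLA4+HER2 than in ENT+CTLA4 by −0.76 ± 0.15, 1.69-fold, and had the smallest p of the 621 genes (limma adjusted p = 0.0249). It was the only member called there, beside 2.25% of genes. The anti-HER2 values rest on 30 and 49 counts, with exact Poisson 95% intervals of 20.2 to 42.8 and 36.3 to 64.8 counts. These tumours had total counts of 226863 and 311822, below the 346883 to 483418 of ENT+CTLA4. Against the repeat-titled pair, on the same cartridge, Mavs was lower by −0.61 ± 0.17 (adjusted p = 0.0703). The call was lost with median rescaling of the samples (−0.97, adjusted p = 0.104), with quantile normalization (−0.93, adjusted p = 0.0841) and with the compared groups alone (−0.76, adjusted p = 0.192). It was also lost without ENT+CTLA4 replicate 5 (adjusted p = 0.0638) or 6 (0.0711), or without ENT+CTLA4+HER2 replicate 1 (−0.60, adjusted p = 0.0849). It held in edgeR (adjusted p = 0.0231) and DESeq2 (0.0106), and the direction was the same throughout.

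The other members went the other way in this comparison. All 6 were higher with anti-HER2 as deposited, with Nod2 at 0.93 ± 0.31 (adjusted p = 0.105) and Nod1 at 0.76 ± 0.24 (adjusted p = 0.0858) the furthest and Tbk1 the least at 0.0866, and none of them passed. Without overlap between the groups, 4 members were higher, where 22.5% of genes were, and 1 was lower, where 6.28% were. The median gene was higher by 0.17, and under median rescaling Ikbke and Tbk1 turned to −0.10 and −0.13 while Nod1 and Nod2 stayed higher at 0.54 and 0.72. Under quantile normalization Ikbke and Tbk1 turned to −0.0625 and −0.0415, and Nod2 shrank to 0.29. Against the repeat-titled pair, Nod2 was higher by 1.48 ± 0.38 (adjusted p = 0.0457, 1 of 7 members called beside 1.93% of genes), a call that was lost without any one of the 4 samples (adjusted p = 0.0884 to 0.278). It was also lost under all 10 alternatives that gave a value, at 0.39 to 2.23. Nod1 was higher than in the pair by 0.66 ± 0.27 and was not called (limma adjusted p = 0.207). The summed neutrophil signal over 7 markers was 13432 and 2097 in the anti-HER2 tumours, against 1038 to 1921 in ENT+CTLA4, with 0 of 5 tested markers called (S100a8 had an adjusted p of 0.0858 and Camp of 0.0923), while the sum over 6 epithelial markers was 7416 to 9791 against 8319 to 10559. One epithelial marker, the integrin Itgb4, was called lower, at 480 and 1062 against 1168 to 1586 in ENT+CTLA4 (adjusted p = 0.0472). All 7 tested T cell markers were higher (median 0.80), while the sums over 8 markers, 146 and 347, lay within 57.3 to 676 in ENT+CTLA4. Of 9 tested macrophage markers 4 were higher and 5 lower (median −0.04). Of 3 NK cell markers 2 were higher and 1 lower (median 0.57), and all 3 dendritic cell markers were higher (median 0.18). None of these was called. The part of these cells in the Mavs and Nod values was not tested.

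Mavs in ENT+PD1+CTLA4 lay without overlap below ENT+CTLA4 (−0.24 ± 0.12, adjusted p = 1.00), the only member without overlap between those arms, beside 1.45% of genes. Between ENT+CTLA4 and ENT, on different cartridges, Mavs differed by 0.31 ± 0.12 (adjusted p = 0.251). It was most like Il34 (r = 0.77), a ligand of the CSF1 receptor, then Lag3 (0.64), an inhibitory receptor of T cells, and Cd99 (0.62).

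**Figure D3:**
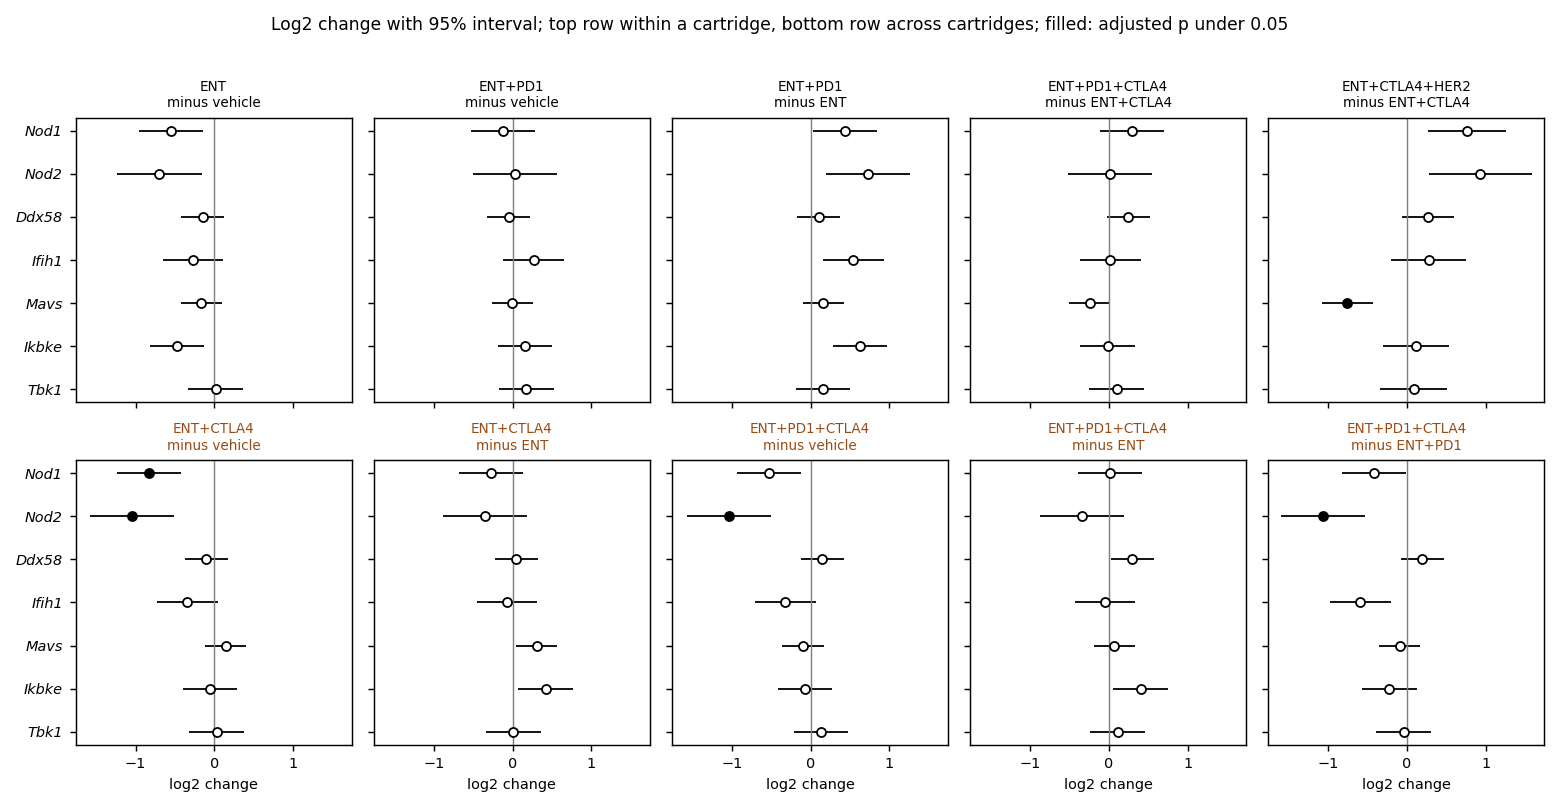
Log2 change (horizontal axis) of each member in the 10 comparisons of arms, with 95% intervals from the limma fit; the top row stays within a cartridge and the bottom row crosses cartridges, and filled points have an adjusted p under 0.05. Mavs in ENT+CTLA4+HER2 against ENT+CTLA4 is the only filled point of the top row, and the 4 filled points of the bottom row are Nod1 and Nod2.

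Of the kinases, Ikbke encodes IKKε, an inducible relative of the IκB kinases. It was 61.7, 63.7, 52.8 and 62.1 in vehicle, 40.8, 38.7, 48.4 and 44.3 in ENT and 56.3, 60.4, 77.2 and 75.8 in ENT+PD1. All ENT tumours lay below every tumour of both other arms. On the second cartridge it was 53.4, 59.4, 59.3 and 59.0 in ENT+CTLA4. The ENT+PD1+CTLA4 tumours had 50.4, 55.2, 83.3 and 45.8, and Ikbke was 57.9 and 69.7 in the repeat-titled pair and 64.6 and 60.7 with anti-HER2. ENT was the lowest arm, and the only step without overlap in the order of means was from ENT+CTLA4 down to ENT. The high value in ENT+PD1+CTLA4 belonged to replicate 1, the tumour with the largest sums of macrophage (13315) and T cell (1240) markers in that arm. It also led the arm in neutrophil (3278), dendritic cell (745), NK cell (242) and B cell (416) sums. In ENT+CTLA4, replicate 6 had the largest macrophage (10403) and T cell (676) sums, with Ikbke at 59.0. The part of these cells in the Ikbke values was not tested.

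Ikbke was lower in ENT than in vehicle by −0.47 ± 0.16 (limma adjusted p = 0.999) and higher in ENT+PD1 than in ENT by 0.63 ± 0.16 (adjusted p = 0.143). Neither passed. The second of these was called when ENT+PD1 replicate 1 was left out (0.71, adjusted p = 0.0388), and was 0.43 without replicates 5 and 6. Under median rescaling it shrank to 0.11 and under quantile normalization to 0.12, with the direction kept. ENT+CTLA4 and ENT+PD1+CTLA4 were higher than ENT by 0.42 ± 0.16 (adjusted p = 0.247) and 0.40 ± 0.16 (adjusted p = 0.411), across the cartridges. Ikbke was most like Tnfrsf1b (r = 0.79), a TNF receptor, then Alas1 (0.78), a housekeeping gene of the panel for heme synthesis, and Ctla4 (0.76), the target of one of the antibodies.

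Tbk1 encodes the kinase that MAVS and other adaptors use in most cell types. Its arms averaged from 76.2 ± 10.2 (n = 2) in the repeat-titled pair to 97.2 ± 20.5 in ENT+PD1, with overlap between all neighbours, and single tumours ran from 69.0 to 118. In no comparison did its unadjusted p fall under 0.05. It was most like Il2ra (r = 0.78), the alpha chain of the interleukin-2 receptor, and the MHC class II genes H2-Aa (0.78) and H2-Ab1 (0.76). The correlation of Tbk1 with Ikbke was 0.45.

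Taken over the members, ENT against vehicle had 0 of 7 called and 0 of 621 genes (0%; 29 genes at unadjusted p under 0.05, and 0 genes called by edgeR and by DESeq2), with 6 members lower, of which Ddx58 and Mavs turned to 0.0323 and 0.0142 under median rescaling. The median change of the 7 was −0.27, against −0.11 over all genes. ENT+PD1 against vehicle also had 0 of 7 called and 0% of genes (60 with an unadjusted p under 0.05, and 0 by edgeR or DESeq2), with member changes between −0.12 and 0.27. In ENT+PD1 against ENT all 7 were higher, with a median of 0.43 against 0.34 over all genes. None was called, beside 0.322% of genes; 4 members had an unadjusted p under 0.05, beside 19.3% of genes, and edgeR and DESeq2 called 0 members. Only Ikbke was without overlap there, beside 6.12% of genes. That shift of all genes turned to −0.16 under median rescaling, and 4 of the 7 members then turned with it, Nod1 to −0.0865, Mavs to −0.35, Tbk1 to −0.36 and Ddx58 to −0.42. Adding anti-PD-1 to ENT+CTLA4 moved the members by −0.24 to 0.29, with 0 called, beside 0% of genes (10 with an unadjusted p under 0.05, and 0 by edgeR or DESeq2).

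ENT+CTLA4 and ENT+PD1+CTLA4 against ENT had 0 members called, beside 0% of genes in each (94 and 70 genes at unadjusted p under 0.05; edgeR 0 and 0, DESeq2 15 and 0). In each, 2 members had an unadjusted p under 0.05, beside 15.1% and 11.3% of genes, and edgeR and DESeq2 called 0 members. The interaction asks whether anti-PD-1 acted differently with and without anti-CTLA-4, and an additive cartridge difference cancels in it. It called 0 of 7 members and 0% of genes (42 with an unadjusted p under 0.05, and 0 by edgeR or DESeq2). It came to −0.64 ± 0.23 for Ikbke and −0.40 ± 0.18 for Mavs (adjusted p = 0.595 for both). With median rescaling Ikbke shrank to −0.0923, and with quantile normalization to −0.0743. For Mavs the sign turned under median rescaling (0.15) and quantile normalization (0.0475), and the median over all genes was −0.33.

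**Figure D4:**
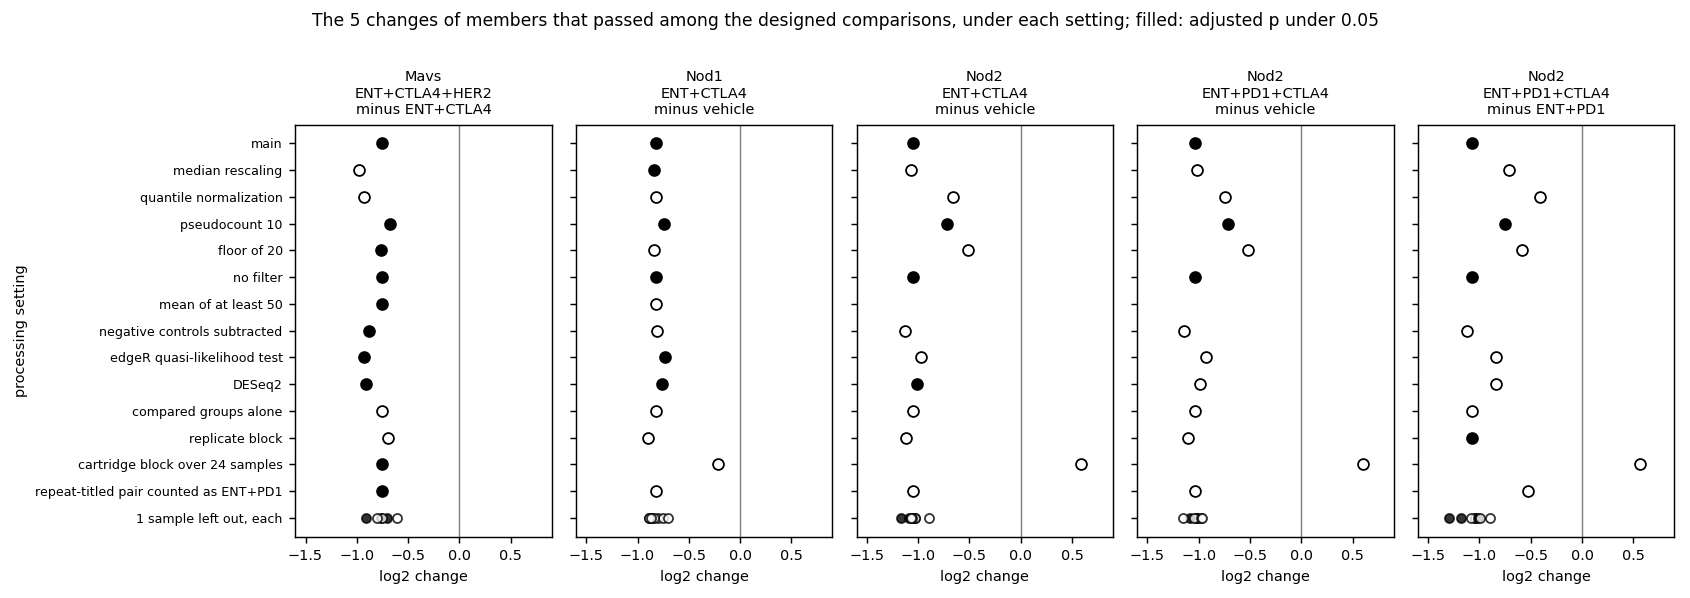
Log2 change (horizontal axis) of the 5 member changes called among the 10 comparisons of arms, under each processing setting (rows), with filled points where the adjusted p is under 0.05; the bottom row has a point for each sample left out. The Mavs change stays between −0.97 and −0.60, and Nod2 crosses to positive values with the cartridge block in all 3 of its panels.

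Of 24 tested adaptors and kinases next to the sensors, among them Ripk2, Traf3, Tank and Dhx58, 0 were called in any of the 10 comparisons of arms. The nearest was Ticam1, the adaptor of Toll-like receptor 3, in ENT against vehicle (−0.69 ± 0.17, adjusted p = 0.456). Of 12 transcription factors and NF-κB regulators, 1 was called in 1 comparison. Nfkbia, the inhibitor of NF-κB that NF-κB itself induces, was lower in ENT+PD1+CTLA4 than in ENT+PD1 (−0.56 ± 0.15, adjusted p = 0.0488), across the cartridges. That call was lost under both scalings, and 9 of the 12 genes were then higher under median rescaling, against 1 of 12 as deposited. Irf7, the factor at the end of the MAVS pathway, was higher in ENT+PD1 than in ENT by 1.16 ± 0.31 without passing (adjusted p = 0.143).

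Of 19 tested interferon-stimulated genes, leaving out the members, 2 fell in ENT+CTLA4 against vehicle, Ifit1 (−1.14 ± 0.25) and Usp18 (−1.22 ± 0.28), and 2 in ENT+PD1+CTLA4 against vehicle, Ifit1 (−1.01 ± 0.25) and Oas3 (−1.30 ± 0.32). Against ENT+PD1, Usp18, Ifit1 and Oas3 fell in ENT+PD1+CTLA4 (−1.40 to −1.15). These comparisons cross the cartridges as those of Nod2 do. Of these 7 calls, median rescaling left that of Ifit1 in ENT+CTLA4 and quantile normalization left 0. Ifit1 and Oas3 are weak on this panel like Nod2, at 36.7 ± 8.28 and 20.7 ± 5.24 in vehicle. In the repeat-titled pair Ifit1 was 15.2 and 22.4, near its range of 13.7 to 18.6 in ENT+CTLA4. With anti-HER2 added, 17 of the 19 were higher with a median of 0.77 against 0.17 over all genes (15 under median rescaling, 16 under quantile normalization). Of these 1 passed, Psmb9 (1.32 ± 0.31, adjusted p = 0.0344), a call lost under both scalings. Of 8 tested interferons, receptors and their signal carriers, 1 was called there, Ifna4, at 20.7 and 32.3 against 2.74 to 11.3 in ENT+CTLA4, which reaches the level of the negative controls, and this call too was lost under both scalings. Of 13 NF-κB-induced genes 0 were called in any of the 10 comparisons of arms. All 13 were higher in ENT+PD1 than in ENT as deposited, with a median of 0.37 against 0.34 over all genes, but 6 of 13 were under median rescaling and 8 of 13 under quantile normalization.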

How the data were processed

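RNA from 24 samples had been counted on an nCounter instrument with a mouse immune panel. The labels' protocols name a Myeloid Innate Immunity panel. The titles of all 24 samples and the name of the deposited data both give pancancer, which was taken as the panel of these values. The values that the authors deposited are a linear, housekeeping-normalized signal: the geometric mean of the housekeeping genes was 346.9 in every sample. The submitters' processing notes name limma, while its version and the normalization steps are not given in the sources used. Dividing each sample by 1 factor returned whole counts for 100% of values above 1 (tolerance 0.05), and 82 values, none of a member, stood at 1. Control probes were unscaled counts.

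Genes at 20 or more in at least 4 samples were tested on log2(value + 1) in limma 3.58.1 (lmFit, eBayes with trend, R 4.3.3), a scale that understates changes of weak genes. The fit held 22 samples in 6 groups without the repeat-titled pair, and comparisons with that pair used 24 samples in 7 groups. The test was checked on simulated counts with known changes in ENT against vehicle only. They held no cartridge difference and a single spread for all genes. The check therefore does not bear on comparisons across cartridges or with the anti-HER2 arm. edgeR 4.0.16 and DESeq2 1.42.0 on the recovered counts, other scalings, filters and blocks, and leaving out single samples were alternatives. Intervals of counts are exact Poisson at 95%.

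All 7 members are named, with a change wherever an unadjusted p was under 0.05 or a sentence compares arms. Likeness was Pearson's r of log2 values over 24 samples after centring on cartridges, with the 3 highest genes named. Of each pathway list up to 4 called genes are named, or at most the 2 with the smallest p. Members, lists and tests were chosen with earlier results of these data known. Promoter sequences and gene names are from RefSeq (GRCm38.p6), in which all 7 members matched by accession, with 8 starts.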

Additional observations from a re-analysis of the deposited data

Results flagged for a closer look

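Ikbke in ENT+CTLA4 replicate 1, at 53.4 normalized counts, stood apart from the other 3 tumours of its arm, which lay between 59.0 and 59.4. Its gap to the nearest was 0.943 of the range of the arm, above Dixon's 95% critical value for 4 samples. Chance marks about 1 in 20 such groups, and this was the only 1 of 35 groups of 4 examined for the members. The value of 53.4 is within the range of Ikbke in vehicle.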

How the results depend on the processing

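Of 29 member changes with an unadjusted p under 0.05, recomputed under up to 14 alternatives each without leaving out single samples (369 values), 361 kept their direction and 302 also their side of the threshold, while 57 lost a call and 2 gained one. The 8 that reversed were Nod1 in ENT+PD1 against ENT (−0.0865, median rescaling), Mavs in the interaction (0.15, median rescaling, and 0.0475, quantile normalization), and 5 values with the cartridge as a block. Those were Nod2 in ENT+CTLA4 against vehicle (0.59), Nod1 and Nod2 in ENT+PD1+CTLA4 against vehicle (0.0791 and 0.60) and Nod1 and Nod2 in ENT+PD1+CTLA4 against ENT+PD1 (0.20 and 0.57). That block takes the cartridge difference from the repeat-titled pair alone, set against ENT+PD1 of the first cartridge with replicates 5 and 6 included.

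Members called were 2 for ENT+CTLA4 against vehicle and 1 each for ENT+PD1+CTLA4 against vehicle and against ENT+PD1, ENT+CTLA4+HER2 against ENT+CTLA4 and against the pair, the pair against ENT+PD1, and the F test. Median rescaling left 1 for the first and 0 for the other 6, and quantile normalization left 0 for all 7. A floor of 20, a mean of at least 50 and subtraction of the negative controls left 0 but for ENT+CTLA4+HER2 against ENT+CTLA4 (1). A mean of at least 50 removes Nod2 itself. A pseudocount of 10 and no filter took ENT+CTLA4+HER2 against the pair to 0. edgeR gave 1 for ENT+CTLA4 against vehicle, 1 for both anti-HER2 comparisons and 0 for the rest, and DESeq2 also gave 1 for ENT+CTLA4+HER2 against the pair. In both tools the member called against the pair was Mavs (adjusted p = 0.0355 and 0.0308) and no longer Nod2. DESeq2 gave 2 for the F test and 0 for ENT+PD1+CTLA4 against vehicle and ENT+PD1 and for the pair against ENT+PD1. The compared groups alone left 0 for each pair of groups. Counting the pair as ENT+PD1, with or without the cartridge block, left 0 wherever cartridges are crossed. Without ENT+PD1 replicates 5 and 6, an alternative chosen after seeing the data like the subtraction of controls, 0 remained for ENT+PD1+CTLA4 and the pair against ENT+PD1 and for the F test. Where no construction is named, the cause was not tested.

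Leaving out single samples gave 0 to 2 members for ENT+CTLA4 against vehicle, 0 to 1 for ENT+PD1+CTLA4 against vehicle, 0 to 2 against ENT+PD1, 0 to 1 for ENT+PD1 against ENT and for ENT+CTLA4+HER2 against ENT+CTLA4, 0 to 3 for the pair against ENT+PD1 and the F test, and 0 for ENT+CTLA4+HER2 against the pair.

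Replicate numbers were not used as pairs, since 14 of 40 pairs of samples with the same number correlated above 0.1 (median −0.03). The replicate block left 0 members called in every comparison with a call but ENT+PD1+CTLA4 against ENT+PD1 (1), and took the Mavs change with anti-HER2 to −0.70 (adjusted p = 0.0983).

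Genes called over the alternatives that leave out no single sample ran from 0 to 21 for ENT+CTLA4 against vehicle (9 as reported), 0 to 46 against ENT (0), 0 to 3 for ENT+PD1 against ENT (2), 0 to 16 for ENT+PD1+CTLA4 against vehicle (13), 0 to 19 against ENT+PD1 (20), 0 to 23 for ENT+CTLA4+HER2 against ENT+CTLA4 (14), 0 to 24 against the pair (12), 0 to 24 for the pair against ENT+PD1 (9) and 0 to 48 in the F test (20). For the pair against ENT+CTLA4 and ENT+PD1+CTLA4 they ran from 0 to 4 and 0 to 2 (0 in each as reported). With single samples left out the highest counts, in the same order as above, were 22, 1, 26, 18, 69, 23, 27, 78, 57, 0 and 7.

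Depth limits Nod2 most, at 5 to 36 counts a sample. The other members had at least 30 counts in each sample.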

Other observations

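The members were also compared between the repeat-titled pair and the anti-CTLA-4 arms of its own cartridge. The member changes ran from −0.16 to 0.55 for ENT+CTLA4 over the pair and from −0.15 to 0.57 for ENT+PD1+CTLA4 over the pair, with Nod2 the highest in both. In either comparison 0 of 7 members were called (limma, edgeR and DESeq2, with 0 members at an unadjusted p under 0.05), beside 0% of genes. These comparisons hold 2 samples against 4, and a missed threshold does not show that the levels are alike.

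The second sample of the pair correlated best with ENT+PD1+CTLA4 replicate 2 (r = 0.977), while the sample whose title it repeats ranked 8 (r = 0.965).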
